A study of Rattus norvegicus with 6 samples.

Results

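The fragments described here came from tRNAs of the mitochondrial genome that are transcribed together with most of the mitochondrial mRNAs, on the transcript of the heavy strand. They were chosen by name, as the fragments of mitochondrial Phe, Val, Leu, Ile, Met, Trp, Asp, Lys, Gly, Arg, His, Thr and Ser-GCT tRNAs. This gave 77 of the 615 listed fragments and 77 of the 135 mitochondrial ones. The other 58 mitochondrial fragments came from tRNAs of the opposite strand, and 480 of the 615 came from nuclear tRNAs. The files give no strand, so the assignment to the heavy-strand transcript follows the known gene order of the mammalian mitochondrial genome. No fragment of Leu-TAG, a further tRNA of this transcript, was among the 77.

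The tissue was the hippocampus, which serves memory, and small RNA was read from Sprague-Dawley rats at an age of 6 to 8 weeks. They were given saline or nicotine, the addictive alkaloid of tobacco, and each group held 3 libraries from rats numbered separately in the labels. The labels state no dose, route, duration or sex. Values are CPM, read counts scaled to the same total in each library. Depth differed between the groups, since the saline libraries held 374763, 154414 and 206221 reads and the nicotine libraries 90828, 122282 and 128694, so depth and treatment cannot be told apart. The heavy-strand fragments themselves held 2432, 1499 and 1743 reads in saline and 1631, 1093 and 1443 in nicotine, and 1 read was worth 2.67 to 11.01 CPM.

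As background, the mitochondrial genome is transcribed into long RNAs from which tRNAs are cut out, and this releases the mRNAs and ribosomal RNAs that lie between them. Mitochondrial RNase P cuts at the 5′ end of a tRNA and ELAC2 at its 3′ end, after which the enzyme TRNT1 adds the CCA tail. A trailer is the piece of precursor just downstream of the 3′ cut. A tiRNA, as such fragments are named in the files, is the piece on one side of a cut near the anticodon, for which angiogenin is the best known enzyme in mammalian cells. In a tissue sample, fewer mitochondria or cells and fewer fragments per mitochondrion cannot be told apart. No mitochondrial tRNA sequence was used here, so fragments are given by their positions within the tRNA.

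The 77 fragments came from 13 tRNAs. Ser-GCT and Val-TAC had 11 each, Trp-TCA and Met-CAT 10 each, Ile-GAT and Lys-TTT 7 each, His-GTG and Leu-TAA 6 each, Thr-TGT 3, Asp-GTC and Phe-GAA 2 each, and Arg-TCG and Gly-TCC 1 each. By position, 45 started at the first base of the tRNA, 25 ended at its 3′ end, 6 were trailers and 1 was internal, and their lengths ran from 14 to 40 nt. Of the 77, 45 had reads in all 6 libraries, and 18 reached a mean of 100 CPM. Those 18 came from 5 tRNAs, with 8 of Ser-GCT, 5 of Met-CAT, 2 each of His-GTG and Trp-TCA and 1 of Lys-TTT. A read covered a whole fragment, so CPM values of different fragments were set side by side without division by length.

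Summed over all 77, the heavy-strand fragments reached 6489, 9708 and 8452 CPM in saline and 17957, 8938 and 11213 CPM in nicotine. The means were 8216 ± 1622 and 12703 ± 4690 (SD, n = 3 each). The groups overlapped, because the sum in nicotine 2 lay below that in saline 2. The nicotine 1 library stood highest, at 2.00 times the mean of the other 5, and without it the nicotine mean was 10075 CPM. The opposite-strand fragments summed to 3520 ± 794 CPM in saline and 4725 ± 225 in nicotine, and here the groups did not overlap. With the fragments of Ser-GCT and the 3′ fragments of Trp left out, a choice made after their values were seen, the remaining heavy-strand fragments summed to 1796, 2603 and 2541 CPM in saline. In nicotine they summed to 4613, 2977 and 3722 CPM, above every saline library.

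The share of mitochondrial fragments that came from the heavy strand does not depend on the library total. It was 69.6%, 68.9% and 71.7% in saline and 78.8%, 66.7% and 69.7% in nicotine. The difference of 1.67 percentage points was within the spread between libraries (exact two-sided permutation test, p = 0.8, n = 3 each, smallest possible p 0.1). The 95% Wilson interval for nicotine 1 was 76.9% to 80.5%, and the intervals of the other 5 libraries lay between 64.4% and 73.5%. These intervals cover counting error only. Without nicotine 1 the difference was -1.84 percentage points. Of all listed reads, heavy-strand fragments made up 0.943%, 1.60% and 1.60% in saline and 3.66%, 1.56% and 2.38% in nicotine, so the groups overlapped.

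**Figure D1:**
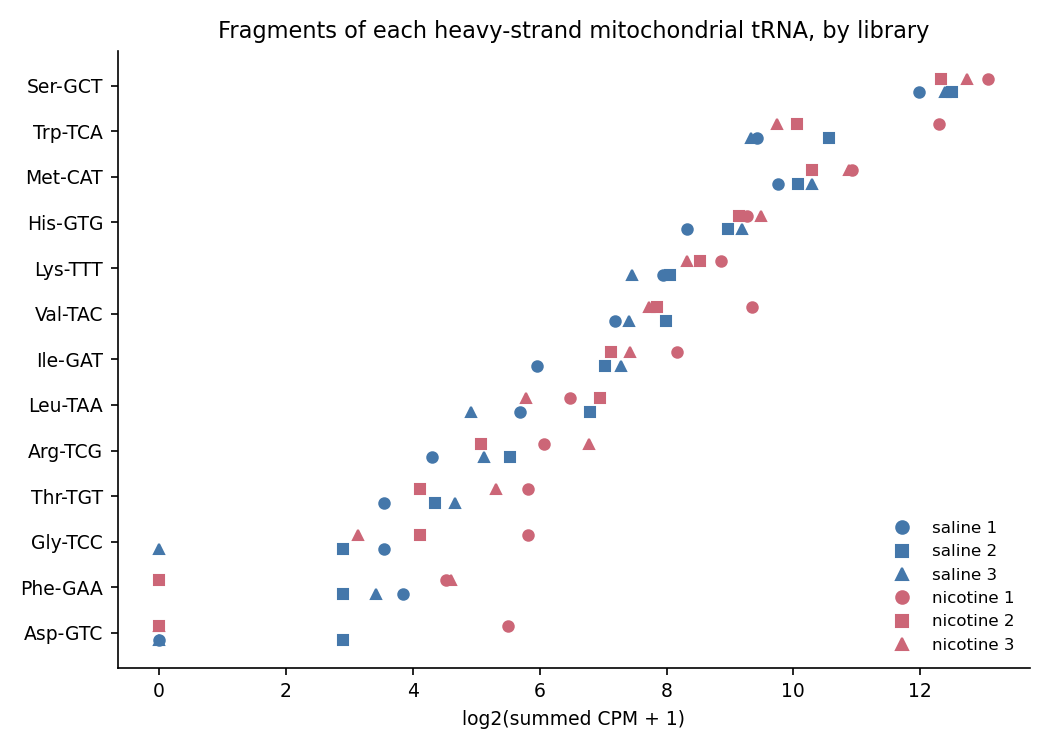
Summed level of the fragments of each heavy-strand mitochondrial tRNA in the 6 libraries, as log2(summed CPM + 1), with saline in blue, nicotine in red and one symbol per replicate number. Ser-GCT was highest in every library, and the nicotine 1 library stood apart for Trp-TCA and Val-TAC.

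Ser-GCT, which decodes serine codons of the AGY type, gave more fragment reads than the other 12 tRNAs together in 5 of 6 libraries. The tRNA is known in mammals for lacking the D arm, so its anticodon lies closer to the 5′ end than in other tRNAs. Its fragments took 62.6%, 59.4% and 63.6% of heavy-strand reads in saline and 48.0%, 57.5% and 60.9% in nicotine, so nicotine 1 was lowest. All 11 of its fragments started at the first base. No 3′ fragment and no trailer of Ser-GCT was among the fragments analysed here.

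The 22 nt fragment tRF-1:22 of Ser-GCT was the most abundant heavy-strand fragment in every library. It reached 2367, 3290 and 2842 CPM in saline and 4448, 2159 and 3800 CPM in nicotine. The groups overlapped, and the log2 fold change (nicotine over saline) was 0.24 ± 0.38 (SE; limma, adjusted p = 0.910). That sign turned under each of 3 other scalings, with -0.08 on TMM-scaled CPM, -0.02 with edgeR and -0.05 with DESeq2. The 20 nt fragment, named tiRNA-1:20, was the second most abundant Ser-GCT fragment, at 603, 952 and 853 CPM in saline and 1420, 1104 and 964 CPM in nicotine. In nicotine all 3 values were above every saline value, although nicotine 3 exceeded saline 2 by little. Together with the 23 and 24 nt fragments, lengths of 20 to 24 nt took 79.1% to 86.5% of the 5′ fragment reads of Ser-GCT.

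In every library this length profile lay outside the range of the other sets of tRNAs, a description made with no test. Lengths of 20 to 24 nt took 5.39% to 6.84% of the 5′ reads of the other heavy-strand tRNAs, 7.75% to 12.6% of those of the opposite strand and 0.518% to 1.66% of those of nuclear tRNAs. The mean 5′ fragment length of Ser-GCT was 22.5 to 23.1 nt, against 29.5 to 29.8 nt for the other heavy-strand tRNAs. The libraries of the groups overlapped in the mean length of Ser-GCT, at 22.7 ± 0.285 nt in saline and 22.9 ± 0.169 nt in nicotine (SD, n = 3 each). Leu-TAA also had its most abundant 5′ fragment at 22 nt, but at a mean of 30.6 CPM. That length took on average 48.8% of its 5′ reads in saline and 46.4% in nicotine, against 56.0% and 49.8% in Ser-GCT. These Leu-TAA shares rest on 5 to 19 reads per library. For Thr-TGT, with 1 5′ fragment, and opposite-strand Ser-TGA it lay at 23 nt, at means of 10.6 and 23.2 CPM. Short 5′ fragments were therefore not particular to Ser-GCT, and the pooled shares weigh abundant tRNAs most.

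A smaller set of longer Ser-GCT fragments centred on 31 nt. The fragment tRF-1:31 reached 192, 330 and 441 CPM in saline and 595, 507 and 668 CPM in nicotine. Every nicotine value was above every saline value, and the log2 fold change was 0.95 ± 0.38 (SE), with an unadjusted p of 0.0159 but an adjusted p of 0.657 (limma). Its share of the 5′ reads of Ser-GCT was 4.73%, 5.72% and 8.21% in saline and 6.90%, 9.87% and 9.78% in nicotine, which overlapped. At the short end, tRF-1:14 of Ser-GCT held 2.67, 32.4 and 9.70 CPM in saline and 22.02, 8.18 and 0 CPM in nicotine. These are few reads per library, and the log2 fold change of -0.88 ± 1.53 (SE; limma, adjusted p = 0.915) turned positive without nicotine 3.

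**Figure D2:**
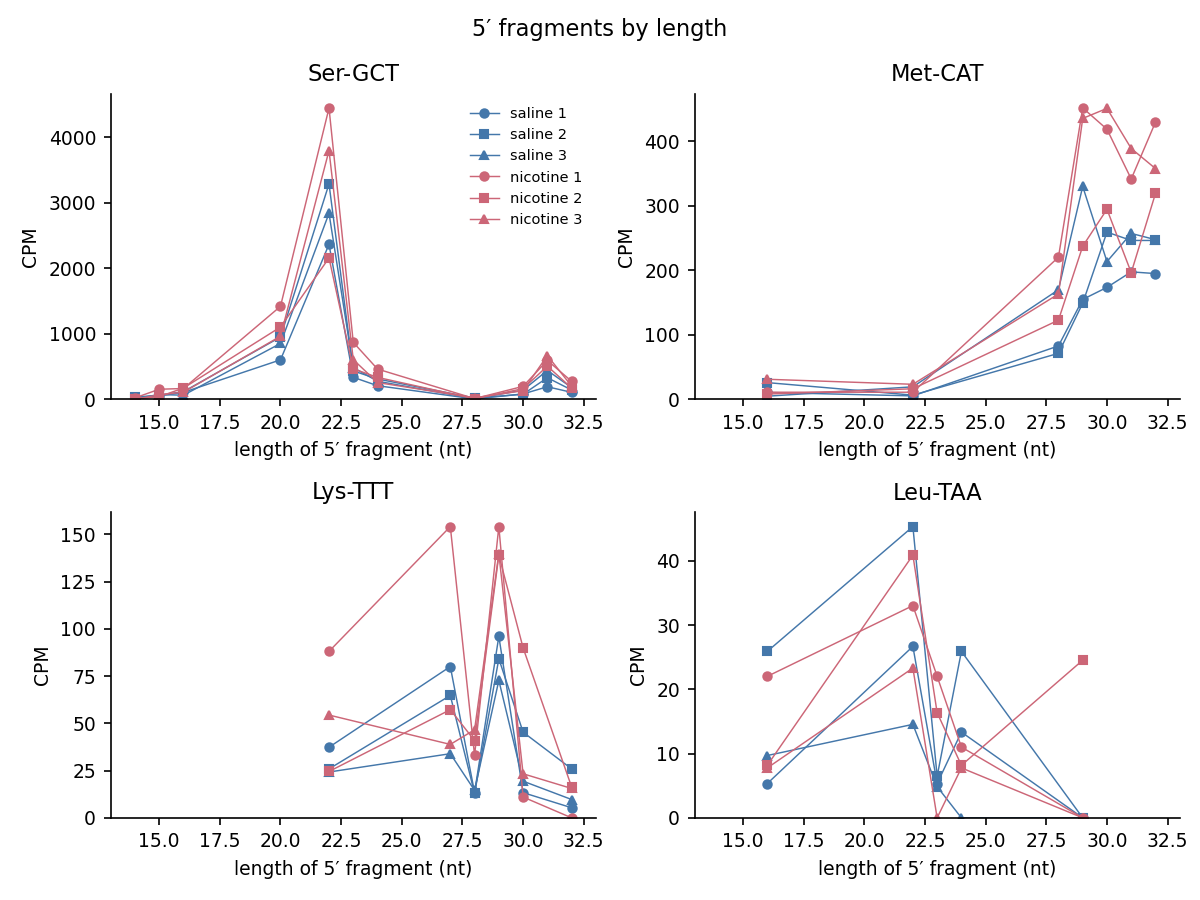
Level in CPM of 5′ fragments by length in nt for 4 heavy-strand tRNAs, with one line per library (saline blue, nicotine red) and axes that start at 0 CPM. Ser-GCT peaked at 22 nt in every library, Met-CAT had a plateau from 29 to 32 nt, Lys-TTT peaked at 29 nt in 5 of 6 libraries and Leu-TAA at 22 nt.

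Met-CAT, the only mitochondrial methionine tRNA and the one that serves both initiation and elongation, was next in 5′ fragments. Its 5′ fragments summed to 819, 1004 and 1241 CPM in saline and 1883, 1194 and 1849 CPM in nicotine. Only nicotine 2 fell within the saline range. Unlike Ser-GCT, no length dominated, since the 29, 30, 31 and 32 nt fragments had mean levels of 293, 302, 271 and 299 CPM. The order among these 4 lengths changed from library to library, and the 30 nt fragment led in 2 of 6.

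Among the Met-CAT fragments, tRF-1:30 held 173, 259 and 213 CPM in saline and 418, 294 and 451 CPM in nicotine, with no overlap. Its log2 fold change was 0.84 ± 0.39 (SE; limma, adjusted p = 0.657). The 29 nt fragment tRF-1:29 of Met-CAT held 155, 149 and 330 CPM in saline and 451, 237 and 435 CPM in nicotine, so nicotine 2 lay below saline 3. The fragment tiRNA-1:31 of Met-CAT held 197, 246 and 257 CPM in saline and 341, 196 and 389 CPM in nicotine, which overlapped. Summed over all its fragments, Met-CAT was the heavy-strand tRNA with the smallest unadjusted p (log2 fold change 0.66 ± 0.32 SE, unadjusted p = 0.0386, limma adjusted p = 0.390).

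Lys-TTT lies between the genes of a cytochrome oxidase subunit and an ATP synthase subunit. Its fragments summed to 245, 266 and 175 CPM in saline and 462, 368 and 319 CPM in nicotine. It was the only one of the 12 tested heavy-strand tRNAs whose groups did not overlap (log2 fold change 0.75 ± 0.44 SE, limma adjusted p = 0.390). Of all 66 tested tRNAs, 9.09% were higher in nicotine without overlap, so 1 of 12 is near that share. Its most abundant fragment, tRF-1:29 of Lys-TTT, held 96.1, 84.2 and 72.7 CPM in saline and 154, 139 and 140 CPM in nicotine. These values also did not overlap, and the log2 fold change was 0.78 ± 0.47 (SE; limma, adjusted p = 0.734). The longest one, tRF-1:32 of Lys-TTT, held 5.34, 25.9 and 9.70 CPM in saline and 0, 16.4 and 15.5 CPM in nicotine, a log2 fold change of -0.89 ± 1.46 (SE; limma, adjusted p = 0.911) that was 0.47 without nicotine 1.

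His-GTG, which lies next to Ser-GCT downstream of an NADH dehydrogenase subunit gene, had a pair of tiRNAs that met at the same cut. The 5′ fragment tiRNA-1:31 held 10.7, 19.4 and 33.9 CPM in saline and 22.02, 40.9 and 23.3 CPM in nicotine. The 3′ fragment tiRNA-32:71 held 195, 266 and 310 CPM in saline and 297, 245 and 334 CPM in nicotine. The 3′ tiRNA was therefore the more abundant in every library, by 9.14 to 18.3 times in saline and 6.00 to 14.3 times in nicotine. Its log2 fold change of 0.20 ± 0.39 (SE; limma, adjusted p = 0.921) turned to -0.12 on TMM-scaled CPM, -0.10 with edgeR and -0.13 with DESeq2.

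The 5′ fragment 1 nt longer than this 5′ tiRNA, tRF-1:32 of His-GTG, was the more abundant of the pair. It held 90.7, 181 and 208 CPM in saline and 242, 254 and 295 CPM in nicotine, with no overlap (log2 fold change 0.80 ± 0.42 SE, limma adjusted p = 0.660). A further pair of 3′ tiRNAs of His-GTG, at 32:69 and 32:70, is named with a C-to-A mismatch. These stayed at or under 38.9 CPM in every library, and from where the mismatch is counted is not stated in the files.

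In the 7 heavy-strand tRNAs with a fragment named as a 5′ tiRNA, the most abundant 5′ fragment ended within 2 nt of it. In Trp-TCA that tiRNA is the only 5′ fragment, so its distance of 0 was fixed. The most abundant one was 2 nt longer in Ser-GCT, Lys-TTT and Ile-GAT, 1 nt longer in His-GTG and 1 nt shorter in Met-CAT and Val-TAC. The 5′ tiRNAs were 20 nt long in Ser-GCT and 27 to 33 nt in the other 6. For Val-TAC, the 5′ fragment tiRNA-1:33 and the 3′ fragment tiRNA-34:71 also met at one cut. There the balance was opposite to His-GTG in saline, with 25 reads of the 5′ tiRNA against 3 of the 3′ tiRNA over the 3 libraries. In nicotine it was 16 against 8 reads, of which nicotine 1 gave 5 and 6.

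Arg-TCG and Thr-TGT were seen with a 3′ tiRNA that starts at the same base 32. The fragment tiRNA-32:67 was the only Arg-TCG fragment, at 18.7, 45.3 and 33.9 CPM in saline and 66.1, 32.7 and 109 CPM in nicotine. These values overlapped, with a log2 fold change of 0.99 ± 0.63 (SE; limma, adjusted p = 0.734). The Thr-TGT fragment tiRNA-32:70 stayed at or under 22.02 CPM in every library. The most abundant Thr-TGT fragment, tRF-1:23, held 5.34, 6.48 and 9.70 CPM in saline and 11.01, 0 and 31.1 CPM in nicotine, and its fitted log2 fold change was -0.13 ± 1.55 (SE; limma, adjusted p = 0.992). The means lay the other way, at 7.17 and 14.0 CPM, because the library at 0 weighs heavily on the log scale.

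**Figure D3:**
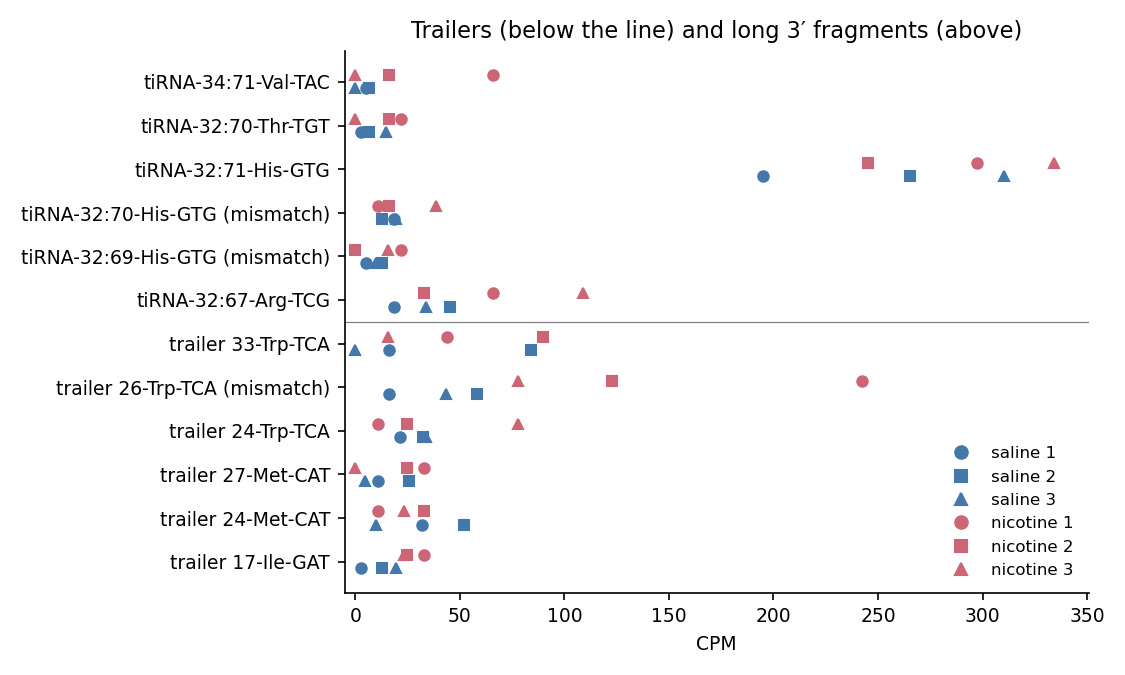
Level in CPM of the 6 trailers (below the line, with their length in nt) and the 6 long 3′ fragments (above) of heavy-strand tRNAs, one point per library, saline in blue and nicotine in red. The 3′ tiRNA of His-GTG was the highest in every library, and the 26 nt trailer of Trp-TCA showed no overlap between the groups.

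Ile-GAT leads the run of tRNAs before the gene of NADH dehydrogenase subunit 2, with Met-CAT at its end and Trp-TCA just downstream of that gene. Its most abundant fragment, tRF-1:32 of Ile-GAT, held 26.7, 77.7 and 58.2 CPM in saline and 132, 32.7 and 46.6 CPM in nicotine. The groups overlapped, and the log2 fold change of 0.24 ± 0.61 (SE; limma, adjusted p = 0.939) turned negative without nicotine 1 (-0.33), without saline 1 (-0.19) and on TMM-scaled CPM (-0.08). All 7 Ile-GAT fragments were higher in nicotine by their fitted values, with a median log2 fold change of 1.45, and 6 of 7 on TMM-scaled CPM. That median is the value of the 17 nt trailer, which had 1 to 4 reads per library. The trailer, tRF-1:16, tRF-1:23, tRF-1:24 and tiRNA-1:30 reached 20 CPM in nicotine libraries alone. Since every member reached 20 CPM in some library, these may be listed through nicotine alone. The count and the median are therefore no support for a direction. Summed over its fragments, Ile-GAT had a log2 fold change of 0.81 ± 0.50 (SE; limma, adjusted p = 0.390), and the groups overlapped. None of the 7 had an unadjusted p under 0.05.

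Phe, Val and Leu-TAA flank the ribosomal RNA genes. Their fragments summed to 262 ± 92.8 CPM in saline and 466 ± 256 in nicotine, against 7954 ± 1549 and 12236 ± 4453 for the other heavy-strand tRNAs (SD, n = 3 each). The groups overlapped in both sets. Of the 17 tested fragments next to the ribosomal RNAs 13 were higher in nicotine, with a median log2 fold change of 0.32. Of the 54 others 45 were higher, with a median of 0.69. On TMM-scaled CPM these counts were 9 of 17 and 39 of 54, with medians of 0.01 and 0.37. Without nicotine 1 the direction of the first set turned, with 7 of 16 higher and a median of -0.44, while the others were at 40 of 54 and 0.42. The difference between the 2 sets was not tested.

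Among these 3 tRNAs, the 5′ fragments of Val-TAC summed to 96.1, 104 and 107 CPM in saline and 143, 139 and 194 CPM in nicotine, without overlap (log2 fold change 0.62 ± 0.41 SE, limma adjusted p = 0.504). The fragment tRF-1:24 of Val-TAC had 0 reads in the 3 saline libraries, where 3 reads over the group would be 4.08 CPM. It had 5 reads spread over all 3 nicotine libraries, or 14.6 CPM over the group, which is 3.59 times that floor. With so few reads this ratio is not a lower bound. The fragment passed the filter on low values through the nicotine libraries alone. Neither the ratio nor its unadjusted p of 0.0452 (limma adjusted p = 0.657) is therefore support for a difference. For Leu-TAA, tRF-1:22 held 26.7, 45.3 and 14.5 CPM in saline and 33.03, 40.9 and 23.3 CPM in nicotine. These overlapped, and its log2 fold change of 0.27 ± 0.69 (SE; limma, adjusted p = 0.944) turned negative on TMM-scaled CPM (-0.05) and with DESeq2 (-0.13). Phe-GAA was seen with tRF-1:31 at 10.7, 6.48 and 9.70 CPM in saline and 0, 0 and 23.3 CPM in nicotine, and with a 3′ fragment of 3 reads in all.

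Trp-TCA, which in mitochondria also reads UGA as tryptophan, was the only heavy-strand tRNA whose short 3′ fragments reached a mean of 100 CPM. Its 6 nested 3′ fragments of 17 to 22 nt summed to 630, 1334 and 538 CPM in saline and 4723, 826 and 660 CPM in nicotine. The nicotine 1 library was at 5.92 times the mean of the other 5, and nicotine 2 and 3 lay within the saline range. All 6 fragments were highest in nicotine 1. The 17 nt fragment tRF-53:69 led, with 435, 887 and 369 CPM in saline and 2896, 548 and 474 CPM in nicotine. Its log2 fold change was 0.80 ± 0.73 (SE; limma, adjusted p = 0.828), and -0.03 without nicotine 1.

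Although the level of this set varied between libraries, its make-up varied less. The 17 nt fragment took 69.1%, 66.5% and 68.5% of the Trp-TCA 3′ reads in saline and 61.3%, 66.3% and 71.8% in nicotine, and the 18 nt fragment 19.1% to 26.7%. The 21 and 22 nt fragments took 5.83% and 5.13% in nicotine 1, the highest share of each length among the 6 libraries. This set held most of the mitochondrial 3′ reads in every library, from 52.1% in saline 3 to 77.3% in nicotine 1. Of all listed 3′ reads, nuclear included, it took 12.0% in nicotine 1 and 2.87% to 5.81% in the other 5.

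**Figure D4:**
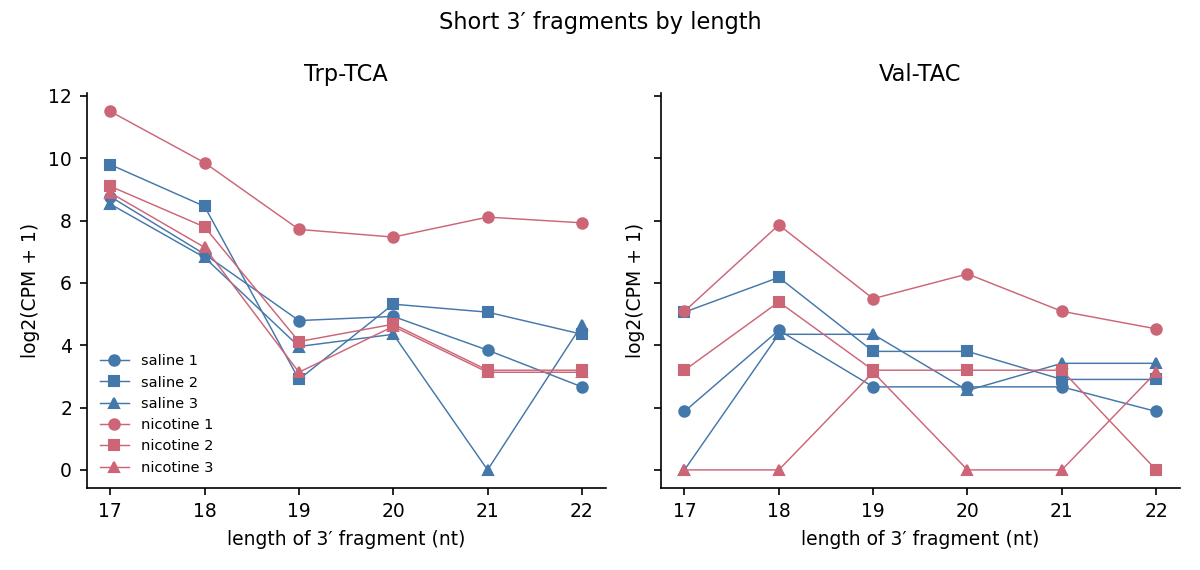
Level as log2(CPM + 1) of the nested short 3′ fragments of Trp-TCA and Val-TAC by length in nt, one line per library (saline blue, nicotine red). Nicotine 1 lay above the other 5 libraries at every length, while nicotine 2 and 3 ran among the saline libraries or below them. The Val-TAC fragments of 19 to 22 nt reached 20 CPM in nicotine 1 alone and may be listed through it.

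The same library stood out for short 3′ fragments of other tRNAs. The 6 Val-TAC 3′ fragments of at most 22 nt summed to 440 CPM in nicotine 1 and to 15.5 to 142 CPM in the other 5. Their most abundant member, tRF-54:71 of Val-TAC, held 21.3, 71.2 and 19.4 CPM in saline and 231, 40.9 and 0 CPM in nicotine. With these overlapping values its log2 fold change was -0.59 ± 2.21 (SE; limma, adjusted p = 0.953), although the mean was higher in nicotine, and it turned positive with DESeq2 (0.94). All 19 heavy-strand 3′ fragments of at most 22 nt were highest in nicotine 1, where they summed to 5318 CPM against 601 to 1502 elsewhere. Those of Asp-GTC, His-GTG, Lys-TTT, Met-CAT, Phe-GAA and Thr-TGT held only 2 reads each there, 22.02 CPM, and stayed under 20 CPM elsewhere. Every member reached 20 CPM in some library, so these may be listed through nicotine 1 alone. Their rank in that library is then no support. The same holds for tRF-53:71, tRF-52:71, tRF-51:71 and tRF-50:71 of Val-TAC, which also reached 20 CPM in nicotine 1 alone. The 6 heavy-strand 3′ fragments of over 30 nt, mostly tiRNA-32:71 of His-GTG, summed to 484 CPM there against 245 to 497 elsewhere. Of these 6, 3 were highest in nicotine 1, among them tiRNA-34:71 of Val-TAC at 66.1 CPM against at most 16.4. These 3 reached 20 CPM in nicotine 1 alone, so their rank is no support either.

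Outside the heavy strand, 3′ fragments of the opposite strand reached 308 CPM in nicotine 1 against 16.4 to 64.8, and nuclear ones 33327 CPM against 16218 to 23217. Nicotine 1 was also the shallowest library and the one with the highest value for 42 of the 77 members. This was not particular to them, since 10 of 11 opposite-strand and 95 of 146 nuclear 3′ fragments were highest there as well. Of the 5′ fragments it was 17 of 45 on the heavy strand, 17 of 45 on the opposite strand and 45 of 213 nuclear ones. Of the 28 members that reached 20 CPM in a single library, 16 did so in nicotine 1. For these 16 the rank in nicotine 1 may follow from the listing. The part of this library's depth in these values was not tested. Without nicotine 1, 7 of the 20 tested heavy-strand 3′ fragments were higher in nicotine, with a median log2 fold change of -0.24, in place of 15 of 20 and 0.58.

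Asp-GTC and Gly-TCC had few reads. The fragment tRF-55:71 of Asp-GTC had 1 read in saline 2 and 2 in nicotine 1, and it did not pass the filter on low values. The only Gly-TCC fragment, tRF-1:30, held 10.7, 6.48 and 0 CPM in saline and 55.0, 16.4 and 7.77 CPM in nicotine. These overlapped, at a log2 fold change of 2.20 ± 1.41 (SE; limma, adjusted p = 0.734).

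Trailers lie, by their names, just downstream of the 3′ end of the tRNA, and they came from 3 heavy-strand tRNAs. Whether these reads came from tRNA precursors was not tested. The 3 Trp-TCA trailers summed to 53.4, 175 and 77.6 CPM in saline and 297, 237 and 171 CPM in nicotine. Only nicotine 3 lay below saline 2, and by little. This set had the smallest p of the 20 tested heavy-strand families, a family being the fragments of one tRNA and one kind (log2 fold change 1.34 ± 0.48 SE, unadjusted p = 0.0124, limma adjusted p = 0.504). Within it, the 26 nt trailer, named with a C-to-T mismatch, held 16.0, 58.3 and 43.6 CPM in saline and 242, 123 and 77.7 CPM in nicotine. Here the groups did not overlap, and its log2 fold change of 1.91 ± 0.58 (SE) had the smallest unadjusted p of all members, 0.00165, with a limma adjusted p of 0.657.

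The other Trp-TCA trailers did not separate the groups. The 33 nt trailer held 16.0, 84.2 and 0 CPM in saline and 44.0, 90.0 and 15.5 CPM in nicotine, a log2 fold change of 1.85 ± 1.59 (SE; limma, adjusted p = 0.828). The 24 nt trailer of Trp-TCA held 21.3, 32.4 and 33.9 CPM in saline and 11.01, 24.5 and 77.7 CPM in nicotine. Its log2 fold change of -0.04 ± 0.71 (SE; limma, adjusted p = 0.997) changed sign with DESeq2 (0.11).

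The 17 nt trailer of Ile-GAT held 2.67, 12.95 and 19.4 CPM in saline and 33.03, 24.5 and 23.3 CPM in nicotine. These values did not overlap, but rest on 1 to 4 reads per library (log2 fold change 1.45 ± 0.96 SE, limma adjusted p = 0.743). The trailer reached 20 CPM in nicotine libraries alone and may be listed through them, so the lack of overlap is no support. The 24 nt trailer of Met-CAT held 32.02, 51.8 and 9.70 CPM in saline and 11.01, 32.7 and 23.3 CPM in nicotine. The 27 nt trailer of Met-CAT held 10.7, 25.9 and 4.85 CPM in saline and 33.03, 24.5 and 0 CPM in nicotine. Both overlapped, with log2 fold changes of -0.31 ± 0.78 and -0.36 ± 1.35 (SE; limma, adjusted p = 0.939 and 0.953), the second of which turned to 0.17 with DESeq2. The fragment tiRNA-1:31 of Trp-TCA, its only 5′ fragment, held 5.34, 6.48 and 29.1 CPM in saline and 22.02, 0 and 23.3 CPM in nicotine, which overlapped (log2 fold change -0.45 ± 1.43 SE, limma adjusted p = 0.953).

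Across all members, no fragment passed the test for a difference between saline and nicotine. Of the 77, 71 passed the filter on low values, and of these 0 had an adjusted p under 0.05 (limma on log2(CPM + 1), adjusted over all 586 tested fragments). The background was 0% of the 586. At an unadjusted p under 0.05, 6 members were higher and 0 lower in nicotine, where 5.12% of all tested fragments were higher and 1.88% lower. The groups did not overlap for 13 members higher and 0 lower in nicotine, against 12.6% and 1.54% of all tested fragments. Both the 6 and the 13 include tRF-1:24 of Val-TAC, which passed the filter through the nicotine libraries alone. Both also include tRF-1:28 of Lys-TTT. The 13 further include tRF-54:71 of His-GTG and tRF-1:16 and the 17 nt trailer of Ile-GAT. These reached 20 CPM in nicotine libraries alone and may be listed through them, so they are no support either. Recovered reads gave 0 members called with edgeR and 0 with DESeq2, and 1 member each at an unadjusted p under 0.05. The count of 6 became 2 on TMM-scaled CPM, 1 without saline 1 and 3 without nicotine 1.

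By direction, 58 of the 71 tested members were higher in nicotine and 13 lower, with a median log2 fold change of 0.60. Of all 586 tested fragments 378 were higher, with a median of 0.28. Without the filter on low values it was 64 of 77 members and 406 of 615 fragments. The members that this added were all higher, but each held only 2 or 3 reads in all. They reached 20 CPM in a nicotine library alone, so this count is no support for a direction. Some tested members also reached 20 CPM in nicotine libraries alone, most of them among the 58 higher ones. Examples are tRF-1:16 of Ile-GAT among the 58 and tRF-1:31 of Phe-GAA among the 13. The count over all 71 is therefore no support by itself. The same limit holds for the counts of members by set, tRNA and kind. On TMM-scaled CPM the median of all fragments shifted from 0.28 to -0.02, and then 48 of the 71 members (67.6%) and 287 of the 586 fragments (49.0%) were higher, with a member median of 0.27. Without nicotine 1 the numbers were 47 of 70 members and 364 of 571 fragments, with medians of 0.32 and 0.21. The 18 members with a mean of at least 100 CPM were all higher in nicotine on deposited CPM, and 16 of 18 on TMM-scaled CPM. Of all 176 fragments at that level, 115 and 76 were higher. Without nicotine 1 it was 17 of 18 members and 120 of 176 fragments.

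The same counts were taken in related tRNAs. Of the 50 tested opposite-strand mitochondrial fragments 33 were higher in nicotine, with a median log2 fold change of 0.28. Of the 290 tested nuclear fragments of the same amino acids 179 were higher, with a median of 0.22. On TMM-scaled CPM these medians were -0.04 and -0.09. Without nicotine 1, 30 of 44 opposite-strand fragments were higher, with a median of 0.36, which is above the 0.32 of the heavy-strand members, and 174 of 283 nuclear ones, with a median of 0.17. The differences between these lists were not tested, other than the share of mitochondrial reads given above.

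By kind, 39 of the 44 tested 5′ members were higher in nicotine, with a median log2 fold change of 0.57, against 156 of all 296 tested 5′ fragments and a median of 0.03. On TMM-scaled CPM it was 32 of 44 and 112 of 296, with medians of 0.24 and -0.28. Without nicotine 1 it was 34 of 43 and 167 of 290, with medians of 0.42 and 0.10. Most listed 5′ fragments were nuclear, and these summed to 552213 CPM in saline and 437547 in nicotine on average, with overlap. Opposite-strand 5′ fragments summed to 3424 and 4524 CPM without overlap, and heavy-strand ones to 6801 and 9641 CPM with overlap. A higher 5′ level in nicotine was therefore not particular to the heavy strand. Of the 3′ members, 15 of 20 were higher with a median of 0.58, against 136 of 166 and 0.45 for all 3′ fragments. Without nicotine 1 these were 7 of 20 and -0.24 against 106 of 160 and 0.19. As shares of heavy-strand reads, 5′ fragments made up 83.1% ± 4.54 in saline and 78.4% ± 11.3 in nicotine, and 3′ fragments 15.0% ± 3.75 and 18.9% ± 11.7 (SD, n = 3 each). Both shares overlapped between the groups, and without nicotine 1 both differences changed sign.

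**Figure D5:**
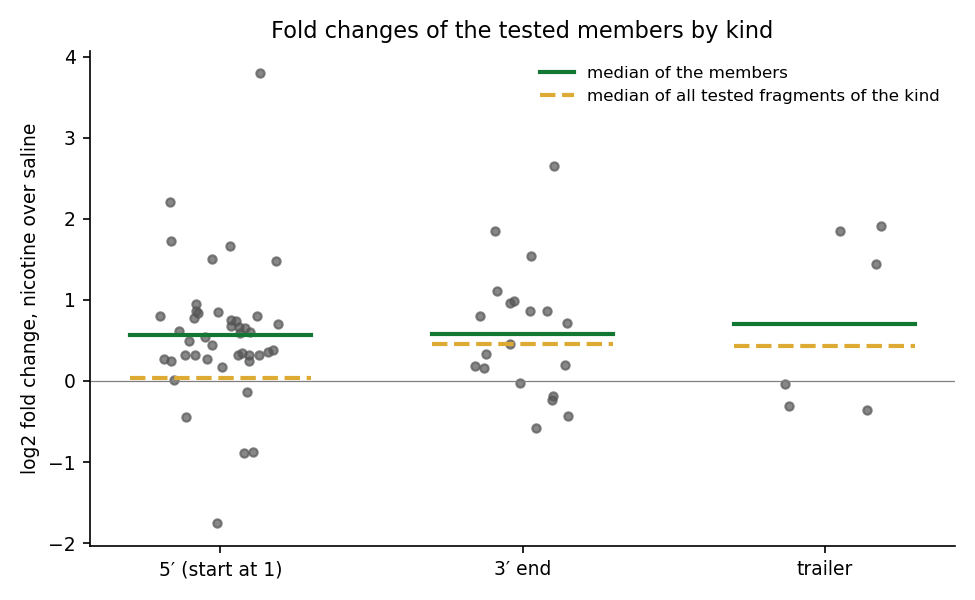
Fitted log2 fold change (nicotine over saline, on log2(CPM + 1)) of each tested heavy-strand 5′ fragment, 3′ fragment and trailer, with the median of the members (solid) and of all tested fragments of that kind (dashed). The 5′ members had a median of 0.57 against 0.03 for all 5′ fragments, and on TMM-scaled CPM 0.24 against -0.28. Most listed 5′ fragments were nuclear, and opposite-strand ones are not shown apart.

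Summing reads did not change the calls. Of the 20 tested heavy-strand families 0 were called, and the background was 0% of 142 families. There were 3 families that had an unadjusted p under 0.05 and were higher in nicotine (background 9.15%), namely the Trp-TCA trailers and the 5′ fragments of Met-CAT and Lys-TTT. This count was 1 without saline 1, without nicotine 1, on TMM-scaled CPM and with edgeR, and 0 with DESeq2. The groups did not overlap in 4 (background 15.5%), the 5′ fragments of His-GTG, Lys-TTT and Val-TAC and the Ile-GAT trailer. That trailer reached 20 CPM in nicotine libraries alone. Of the 12 tested heavy-strand tRNAs 0 were called, against 0% of 66 tRNAs. Only Met-CAT had an unadjusted p under 0.05 (background 6.06%) and only Lys-TTT showed no overlap (background 9.09%). Met-CAT was above that p without saline 1, without saline 2 or without nicotine 1, and with each other scaling. In direction, 11 of the 12 tRNAs were higher in nicotine, with a median log2 fold change of 0.76 against 0.45 for all 66, of which 55 were higher, and the exception was Phe-GAA. With DESeq2, Ser-GCT was at -0.01 as well.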

How the data were processed

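Per the labels' protocols, total RNA was ligated to small RNA adapters, amplified, size-selected on a gel and sequenced on an Illumina NextSeq. FastQC, cutadapt and Bowtie are named in the submitters' processing notes, without versions, and no genome build is stated there. The authors deposited CPM for 615 named fragments. In 2 of the 6 files no unit is named, and the values were taken for CPM. All values (100%) were whole multiples of 1 read within 0.001 reads, and whole reads were recovered from them. Which reads the library total includes is not stated.

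Fragments starting at 1 were called 5′ fragments. Those ending within 3 nt of the largest listed end of their tRNA, at base 60 or later, were called 3′ fragments. Names beginning +1:T were called trailers. Groups were compared with limma 3.58.1 (R 4.3.3, with trend and robust settings) on log2(CPM + 1) for fragments that reached 1 CPM in 3 or more libraries, two-sided, Benjamini-Hochberg adjusted at 0.05 over all fragments, families or tRNAs tested. It was also run on simulated data with larger changes than most members showed, which does not tell how small changes are recovered. A pseudocount of 1 CPM is less than 1 read, so fold changes of fragments with libraries at 0 depend on it. Alternatives were edgeR 4.0.16 with TMM and DESeq2 1.42.0 on recovered reads, TMM-scaled CPM, other pseudocounts and filters, a replicate block and each library left out. One share was tested by exact permutation (scipy 1.17.1). Other sums and shares are described without a p, because the members and lists were chosen with earlier results of these data known and 3 against 3 libraries cannot go below 0.1.

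Named members were the most abundant one of each tRNA, the 5 higher and the 5 lower with the smallest p, and every trailer. Further members were named after their values were seen. Chi-square over degrees of freedom between replicates was 11.9 to 24.4, above sampling noise, so none was a duplicate. P-values measure the spread between these libraries.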

Additional observations from a re-analysis of the deposited data

How the results depend on the processing

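No heavy-strand fragment, family or tRNA was called at an adjusted p under 0.05 under any alternative run. Counts at an unadjusted p under 0.05 varied. For fragments, 6 became 2 on TMM-scaled CPM, 1 with edgeR, 1 with DESeq2 and 1 to 7 with one library left out (1 without saline 1, 3 without nicotine 1). For families, 3 became 1 on TMM-scaled CPM, 1 with edgeR, 0 with DESeq2 and 1 to 4 with one library left out. For tRNAs, 1 became 0 with each of these 3 and 0 to 1 with one library left out. With the replicate block 0 members were called and 8 had an unadjusted p under 0.05. Replicate numbers were not taken as pairs, since the correlations of same-numbered libraries were 0.087, 0.109 and 0.161 and not all above 0.1, although every library correlated best with its own number, a hint from the data and not from the design.

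Nicotine 1 carried much of the level. The difference in summed CPM, 4486, ranged from 1859 (without nicotine 1) to 6368 with one library left out and was 1995 on TMM-scaled CPM. The difference in the share of mitochondrial fragments ranged from -1.84 (without nicotine 1) to 4.19, the 5′ share from -9.14 to 1.68, the 3′ share from -2.76 to 8.06 and the Trp-TCA share from -1.52 to 8.70 percentage points. Without nuclear glycine fragments the difference in the share of listed reads was 2.81 in place of 1.15 percentage points, but of a larger share (6.63% in place of 1.38% in saline), and the ratio of nicotine to saline was 1.42 in place of 1.83. Depth limits the fragments of few reads, for 3 reads over the saline group are 4.08 CPM and over the nicotine group 8.78 CPM.

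Among the named fragments, families and tRNAs, most of those that changed sign had few reads or a log2 fold change near 0. With one library left out, log2 fold changes ranged from -0.96 to 0.19 and -1.28 to 1.27 for the 24 and 27 nt trailers of Met-CAT, -0.76 to 0.60 for the 24 nt trailer of Trp-TCA, -1.85 to 0.41 for tRF-1:14 of Ser-GCT, -0.14 to 0.65 for tRF-1:22 of Leu-TAA, -1.20 to 1.30 for tRF-1:23 of Thr-TGT, -0.33 to 0.66 for tRF-1:32 of Ile-GAT and -1.59 to 0.47 for tRF-1:32 of Lys-TTT. They also ranged from -0.035 to 1.27 for tRF-53:69 of Trp-TCA, -2.31 to 1.62 for tRF-54:71 of Val-TAC, -1.23 to 1.07 for tiRNA-1:31 of Trp-TCA, -1.13 to 1.18 for Phe-GAA and -0.55 to 0.62 for the Met-CAT trailers. A pseudocount of 10 CPM gave 0.041 for the 24 nt Trp-TCA trailer, 0.14 for the 27 nt Met-CAT trailer, 0.26 for tRF-1:23 of Thr-TGT, 0.24 for tRF-54:71 of Val-TAC, 0.037 for tiRNA-1:31 of Trp-TCA and 0.16 for Phe-GAA. TMM-scaled CPM gave -0.048 for tRF-1:22 of Leu-TAA, -0.084 for tRF-1:22 of Ser-GCT, -0.075 for tRF-1:32 of Ile-GAT, -0.12 for tiRNA-32:71 of His-GTG and -0.23 for the Met-CAT trailers. With edgeR the value was -0.016 for tRF-1:22 of Ser-GCT and -0.10 for tiRNA-32:71 of His-GTG. DESeq2 gave 0.11 and 0.17 for the 24 nt Trp-TCA and 27 nt Met-CAT trailers, -0.13 and -0.052 for tRF-1:22 of Leu-TAA and Ser-GCT, 0.64 for tRF-1:23 of Thr-TGT, 0.94 for tRF-54:71 of Val-TAC, -0.13 for tiRNA-32:71 of His-GTG, -0.013 for Ser-GCT and -0.55 for the Met-CAT trailers. The cause was not tested.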
